A study of Mus musculus with 15 samples.

Results

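Peanut sensitization without a later challenge was compared with a sham course of PBS in epithelial cells of the mouse jejunum, a nutrient-absorbing stretch of small intestine. The comparison rests on 6 of the 15 libraries of the study: 3 from mice sensitized to peanut and 3 from mice given phosphate-buffered saline (PBS), chosen by their labels. All 6 mice were of the strain CC027/GeniUnc, and neither group received the peanut challenge that the other 3 groups did. The sensitized mice had received 2 mg of crude peanut extract by gavage each week for 3 weeks and 5 mg in week 4, and the PBS mice received PBS on the same schedule. For both groups a stretch of 4 cm of jejunum was kept for 75 min in a buffer with EDTA and DTT, and epithelial cells were shaken off for sequencing of polyadenylated RNA. The labels give 1 library for each mouse and do not give age, sex, peanut-specific IgE or the time since the last gavage. What follows describes sensitization by its treatment schedule, since no value used here measures how far any mouse had become sensitized.

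CC027/GeniUnc is a strain of the Collaborative Cross, a panel of mouse lines bred from several founder strains, and it is known for reacting to peanut given by mouth after oral sensitization. In food allergy, B cells make IgE against a food protein, and IgE on mast cells triggers their release of mediators when the food is eaten again. The epithelium takes part in the earlier phase: in mice, the epithelial cytokines IL-33, IL-25 and TSLP act on lymphocytes and dendritic cells that drive IL-4, IL-5 and IL-13, and tuft cells are the main gut source of IL-25. The jejunal epithelium itself holds dividing crypt cells, absorptive enterocytes on the villi, and secretory goblet, Paneth, enteroendocrine and tuft cells.

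No gene differed between sensitized and PBS epithelium at an adjusted p under 0.05. Of 14968 genes tested, 0 (0%) passed in edgeR's quasi-likelihood test with Benjamini-Hochberg adjustment, in a fit of all 15 libraries, and the smallest adjusted p was 1. An unadjusted p under 0.05 was reached by 212 genes (1.42%), 84 of them higher (0.561%) and 128 lower (0.855%) in sensitized epithelium, where p-values spread evenly would put 748 genes. The count of genes grew with p, with 581 genes at p below 0.1 and 1962 genes at p from 0.9 to 1. The same fit called 0, 1 and 188 genes (0%, 0.00668% and 1.26%) at 30, 60 and 120 min after challenge, each against the same 3 sensitized libraries. What remains to be described is therefore the size of change that could have been seen, the genes that lay nearest to a call, and the groups of genes whose members leaned one way.

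The libraries of the 2 groups were as far from each other as from their own group. The root mean square difference in log2 CPM (counts scaled to a common library size, with TMM factors) averaged 0.727 among the sensitized libraries, 0.713 between the groups and 0.730 among the PBS libraries. The mean distance between groups was below that within groups by a difference of −0.016 (exact permutation test, one-sided for a larger distance between groups, p = 0.8). With 3 against 3 this p cannot be less than 0.1. The first principal component held 30.3% of the variance and did not follow the groups: sensitized library 3 at 45.5 and PBS library 1 at 38.2 lay at one end, and sensitized libraries 1 and 2 at −33.5 and −30.3 at the other. These 2 libraries also had the largest shares of mitochondrially encoded counts, 26.7% in sensitized library 3 and 25.4% in PBS library 1, against 15.5% to 18.5% in the other 4. Total estimated counts were 16617941 to 19553736 in sensitized and 17764608 to 19396092 in PBS libraries. For 7 measures of the library as a whole, this distance included, the exact permutation p was 0.3 to 1 (adjusted 0.933 to 1), where 3 against 3 cannot reach 0.05. A mitochondria-rich library fell in each group, and some values below are also given without this pair.

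**Figure D1:**
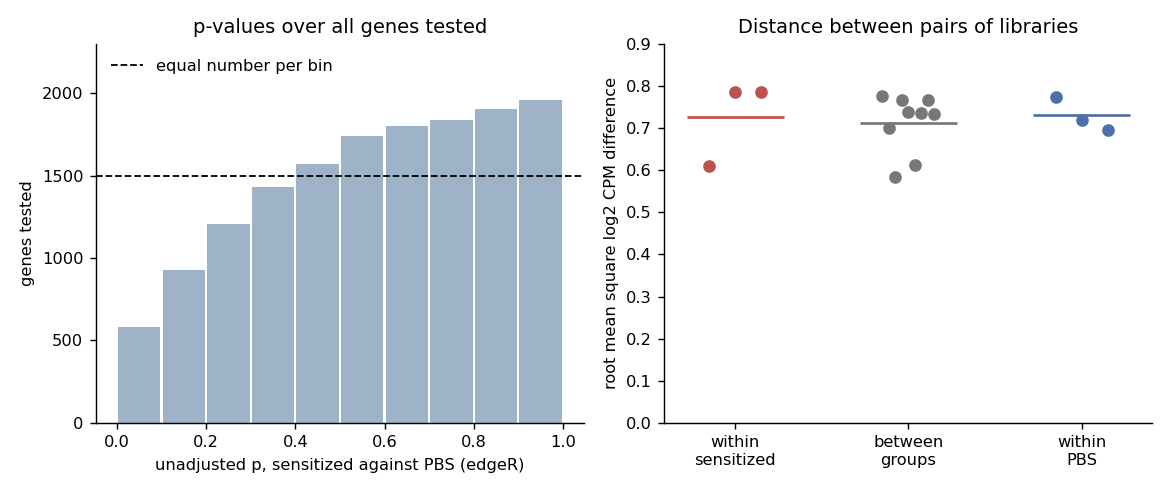
The left panel plots the number of genes (y axis) in bins of the unadjusted p of sensitized against PBS epithelium (x axis), with a dashed line at an equal number per bin; the bins grow from 581 genes at the lowest p to 1962 at the highest. The right panel plots the root mean square log2 CPM difference of each pair of libraries (points) and the mean of each kind of pair (lines), which lie at 0.727 within sensitized, 0.713 between groups and 0.730 within PBS.

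The size of difference that could have been seen depended on how abundant a gene was. Among the 6781 genes at a mean of 10 to 100 CPM the median standard error of the log2 fold change was 0.16. There a difference of 1.27-fold would have reached an unadjusted p of 0.05, and 2.22-fold would have been needed for a gene to be called alone among 14968. The 1538 genes at 100 to 1000 CPM needed 1.24-fold and 2.04-fold for the same steps. The 79 genes at 1000 CPM or more were less settled, at 1.36-fold and 2.74-fold. Precision was poorest at low levels: 1.73-fold and 6.08-fold were needed at 1 to 10 CPM (4289 genes) and 3.25-fold and 49.1-fold below 1 CPM (2242 genes). These are medians over genes, and 39 genes with a whole group at 0 have no finite error.

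The same errors bound the difference for each gene. The 95% interval of the log2 fold change lay wholly between −1 and 1 for 10117 genes (67.6%), so that for these a difference of 2-fold or more lies outside the interval. It lay within 0.58, about 1.5-fold, for 6832 genes (45.6%). Among genes at 10 to 100 CPM these shares were 95.7% and 76.3%, at 1 to 10 CPM 48.3% and 8.51%, and below 1 CPM 0.178% and 0%. The genes measured most closely were Aamp, at 75.5, 79.2 and 76.3 CPM in sensitized and 75.8, 73.8 and 74.1 CPM in PBS libraries (interval −0.14 to 0.23), and Rab14, a small GTPase of endosomal traffic, at 120, 115 and 113 CPM against 116, 120 and 110.5 CPM (interval −0.17 to 0.19). Such intervals hold for genes one at a time, and they cover the spread among these 15 mice only.

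**Figure D2:**
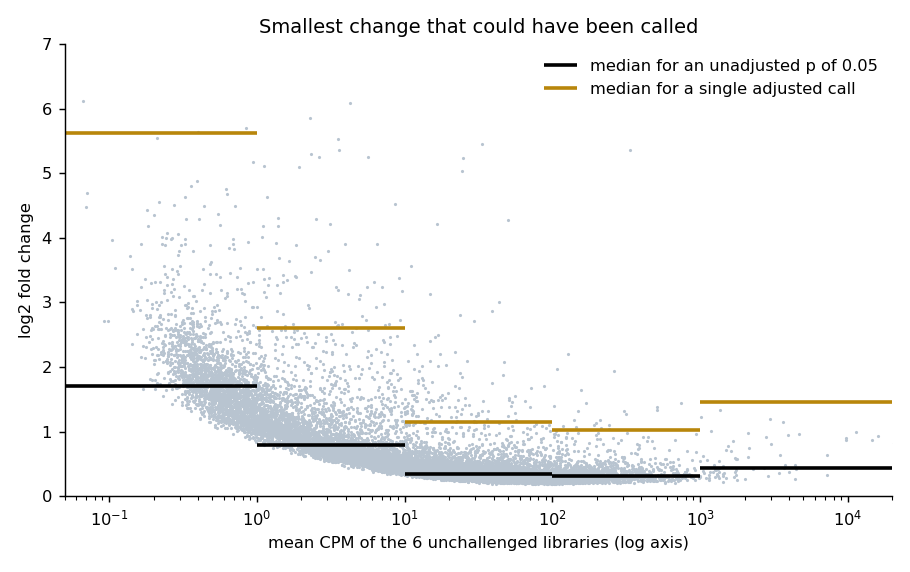
Each grey point is a gene with a finite error, placed by its mean CPM over the 6 unchallenged libraries (x axis, log scale) and by the log2 fold change at which it would have reached an unadjusted p of 0.05 (y axis); points beyond the top of the axis are not shown. Black bars are the class medians for an unadjusted p of 0.05 and ochre bars those for a single adjusted call: between 10 and 100 CPM they lie at 0.35 and 1.15, and below 1 CPM at 1.70 and 5.62.

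Fold changes were small wherever genes were well expressed. Over all genes tested 51.5% were above 0 and 48.4% below, with a median log2 fold change of 0.0068. Of 8398 genes at a mean of 10 CPM or more, 90% lay between −0.22 and 0.24 on the log2 scale, and 14 were past 1 in either direction. Those 14 were chosen by their size and get no test: 8 are V segments of immunoglobulin genes, and the others include H2-Eb1, a chain of an MHC class II molecule, Grn and Pla2g4c. In H2-Eb1, Grn and Pla2g4c the libraries of a group were far apart. Grn, which encodes progranulin, was at 67.0, 1.13 and 1.41 CPM in sensitized and 62.2, 67.8 and 60.8 CPM in PBS libraries, so that 1 sensitized library lay at the PBS level. H2-Eb1 was at 1.179, 7.86 and 45.0 CPM in sensitized and 89.0, 89.6 and 1.55 CPM in PBS libraries. Over all genes 571 (3.81%) were past 1, and 415 of them had a mean under 1 CPM.

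The named gene nearest to a call was Sst, which encodes somatostatin, a hormone of enteroendocrine D cells that restrains secretion of other gut hormones and of acid. Sst (ENSMUSG00000004366.4, chr16:23889573-23890958, GRCm38, minus strand) was at 24.5, 21.97 and 19.4 CPM in sensitized libraries and at 14.2, 7.88 and 12.8 CPM in PBS libraries. Every sensitized library lay above every PBS library. The log2 fold change was 0.92 ± 0.24 (SE; 95% interval 0.40 to 1.43; unadjusted p = 0.00188, edgeR adjusted p = 1), and it ran from 0.70 to 1.16 over 18 alternative settings. In bulk RNA, more cells of a type and more RNA in each of them cannot be told apart. The D cell list had 6 of 7 tested members higher and a median of 0.21 (−0.05 with effective length offsets), but its other members overlapped between the groups. Hhex, a transcription factor of D cells in the pancreas, was at 0.67, 0.38 and 1.201 CPM in sensitized and 0.71, 1.70 and 0.62 CPM in PBS libraries. The enteroendocrine list as a whole was balanced, with 7 of 16 tested members higher and 9 lower and a median of −0.03 (0.24 without PBS library 1 and −0.17 without sensitized library 2). Chromogranin A (Chga), a granule protein of enteroendocrine cells, was at 29.4, 41.9 and 39.8 CPM in sensitized and 42.3, 44.1 and 42.1 CPM in PBS libraries.

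The promoter of Sst is shown because its cyclic AMP response element is a textbook example of a signal-responsive promoter site, and those of Espl1 and Ndc80 because they are mitotic genes with small p whose groups lay clearly apart. The 300-base windows run from 250 bases before to 50 bases after the start of the gene, on the strand of the gene, as given by RefSeq for GRCm38.p6. Capitals mark TGACGTCA, the cyclic AMP response element, in Sst (chr16:23890795-23891094, minus strand), and TTTGAA or its reverse complement TTCAAA, the core of the cell cycle homology region, in Espl1 (chr15:102296043-102296342, plus strand) and Ndc80 (chr17:71526808-71527107, minus strand).
Sst: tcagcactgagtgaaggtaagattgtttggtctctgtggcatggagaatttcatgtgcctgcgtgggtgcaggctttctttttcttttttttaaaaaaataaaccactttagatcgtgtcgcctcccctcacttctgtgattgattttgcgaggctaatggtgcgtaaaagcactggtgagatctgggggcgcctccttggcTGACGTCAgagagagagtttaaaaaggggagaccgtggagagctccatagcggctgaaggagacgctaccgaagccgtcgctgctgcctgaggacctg
Espl1: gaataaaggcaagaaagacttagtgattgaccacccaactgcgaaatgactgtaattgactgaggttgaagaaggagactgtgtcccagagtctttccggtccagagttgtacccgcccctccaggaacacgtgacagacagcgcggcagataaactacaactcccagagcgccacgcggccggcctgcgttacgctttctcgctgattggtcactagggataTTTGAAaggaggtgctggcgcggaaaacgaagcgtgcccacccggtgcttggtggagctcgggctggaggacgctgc
Ndc80: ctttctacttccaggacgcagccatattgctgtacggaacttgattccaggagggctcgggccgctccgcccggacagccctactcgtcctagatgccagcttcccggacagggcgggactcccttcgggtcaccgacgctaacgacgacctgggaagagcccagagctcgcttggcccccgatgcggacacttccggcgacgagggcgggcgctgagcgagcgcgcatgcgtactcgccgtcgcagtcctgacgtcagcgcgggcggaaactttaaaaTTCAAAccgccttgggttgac
Searched on both strands of 32851 RefSeq windows, TGACGTCA was found in 1.79% and TTTGAA in 17.9%. Of the 25 genes of the mitosis list 22 had a window, and 15 of these held TTTGAA in at least 1 window. This counts genes, which can have several windows, while 17.9% counts single windows, so the shares are unlike measures. In Ndc80 the match begins 29 bases after the start of the gene. The Ndc80 window also holds TGACGTCA, left in lower case, and 2 of the 22 mitosis genes with a window hold that element. A match describes the letters in the window; binding was not measured.

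Genes of mitosis lay on one side in sensitized epithelium, and many of them without overlap. All 25 members of the mitosis list were tested, and all 25 were lower in sensitized epithelium, with a median log2 fold change of −0.35, while 48.4% of all genes tested were lower. In 12 members no sensitized library reached the level of a PBS library, and 8 had an unadjusted p under 0.05. Over all genes tested, groups did not overlap for 613 (4.1%) lower and 581 (3.88%) higher, and 128 (0.855%) were lower with an unadjusted p under 0.05. None passed the adjusted threshold. Of the 8, Tacc3, Melk, Espl1 and Ndc80 are also among the 24 named genes of smallest p; the 21 members without these were all lower, 8 of them did not overlap, and their median was −0.33. That cell cycle genes were lower here was known when the list was chosen. List levels, as mean log2 CPM, were 3.67 to 3.98 in sensitized and 4.08 to 4.50 in PBS libraries, and the summed level was 458 to 535 CPM against 587 to 760 CPM.

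The 4 members of smallest p were Tacc3, Melk, Espl1 and Ndc80. Espl1, the protease separase that cuts cohesin at anaphase, was at 11.6, 10.8 and 9.32 CPM in sensitized and 15.4, 15.6 and 15.2 CPM in PBS libraries (−0.54 ± 0.17, interval −0.90 to −0.18; −1.09 with effective length offsets). Ndc80, part of the kinetochore that holds microtubules, was at 4.36, 4.04 and 4.31 CPM against 7.28, 6.41 and 6.61 CPM (−0.68 ± 0.22). Both showed gaps between the groups wider than the spread within either. Tacc3, a microtubule protein of the spindle, was at 14.2, 15.9 and 10.4 CPM in sensitized and 24.7, 18.7 and 20.4 CPM in PBS libraries (−0.65 ± 0.18, or −0.38 without the mitochondria-rich pair). The kinase Melk was at 9.53, 8.78 and 8.12 CPM against 17.1, 15.2 and 12.1 CPM (−0.74 ± 0.21, or −0.57 without the pair). Outside the list, Ncapg, a subunit of condensin (−0.58, or −0.36 without the pair), Cenpj, a centriole protein, and Prr11 were also among the 24 named genes of smallest p and lower, with no overlap.

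The cell cycle genes named next showed smaller differences than Tacc3, Melk, Espl1 and Ndc80, which were picked for the smallest p. Mki67, the common marker of dividing cells, was at 128, 129 and 127 CPM in sensitized and 175, 144 and 144 CPM in PBS libraries (−0.27 ± 0.22), and Plk1, a mitotic kinase, at 21.01, 21.2 and 20.1 CPM against 33.6, 22.6 and 23.2 CPM. In both genes PBS library 1 stood above the other PBS libraries, and the groups still did not overlap. The end members of the list were Cdk1, the kinase that drives entry into mitosis, at −0.20 ± 0.31, and Cenpf at −0.22 ± 0.29, both overlapping. The DNA replication list leaned the same way less evenly: 17 of 23 tested members were lower, 4 without overlap (4.1% of all genes tested). Its median was −0.14 and ran from −0.23 to −0.08 over the alternatives. Rrm1, the large subunit of ribonucleotide reductase, was at 40.7, 38.0 and 30.5 CPM in sensitized and 51.9, 48.6 and 42.5 CPM in PBS libraries, and Mcm7, of the replicative helicase, at 40.4, 43.4 and 39.3 CPM against 53.3, 50.3 and 43.5 CPM.

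The stem cell and Wnt list did not follow mitosis. It had 10 of 15 tested members lower with a median of −0.04 (0.09 without sensitized library 3 and −0.17 without sensitized library 1), and 1 member, Myc, did not overlap, at 22.3, 21.3 and 23.0 CPM in sensitized and 23.0, 24.96 and 26.4 CPM in PBS libraries. The stem cell genes Smoc2 and Ascl2 overlapped between the groups. The mitosis median ran from −0.48 without sensitized library 1 to −0.19 without the mitochondria-rich pair, so part of its size rests on that pair.

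**Figure D3:**
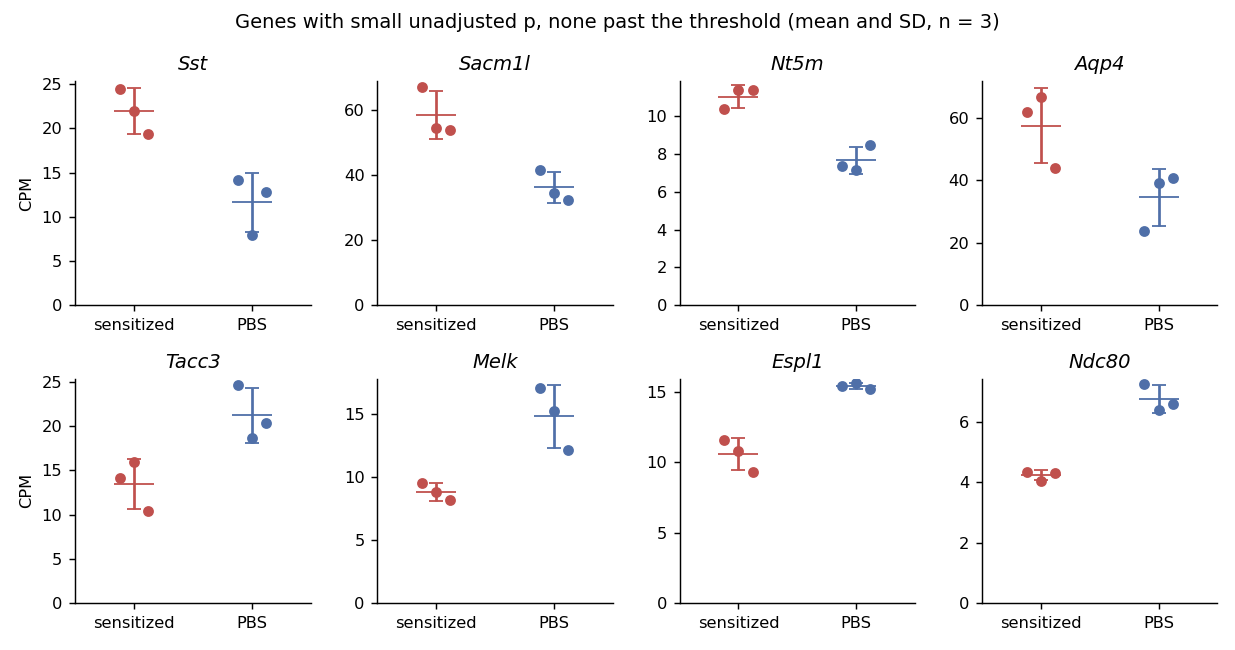
CPM (y axis) of 8 genes among those with the smallest unadjusted p, in the 3 sensitized and 3 PBS libraries (points), with the group mean and SD. Sst, Sacm1l, Nt5m and Aqp4 were higher and Tacc3, Melk, Espl1 and Ndc80 lower in sensitized libraries with no overlap, and all have an adjusted p of 1 in edgeR.

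Genes with other roles were also among the 24 of smallest p. Aqp4, a water channel, was at 62.0, 66.6 and 43.9 CPM in sensitized and 23.8, 39.0 and 40.6 CPM in PBS libraries (0.74 ± 0.26), and the nearest libraries of the groups were close. Sacm1l, a phosphatase of phosphoinositides in the endoplasmic reticulum and Golgi, was at 67.1, 54.6 and 54.0 CPM against 41.7, 34.5 and 32.4 CPM (0.69 ± 0.20). Nt5m, a nucleotidase of mitochondria, was at 10.4, 11.4 and 11.4 CPM against 7.33, 7.15 and 8.46 CPM (0.53 ± 0.16). These 3 genes were measured at levels where a single call needed more than 2-fold. Magt1, a magnesium transport protein, was at 4.82, 6.03 and 4.10 CPM in sensitized and 7.12, 15.0 and 19.8 CPM in PBS libraries (−1.49 ± 0.46, or −0.91 with effective length offsets). Cyp2c70 and Cyp2c23, both cytochrome P450 genes of the Cyp2c family, were both higher (1.43 ± 0.46 and 0.68 ± 0.24). Of the 24 genes, 23 had groups that did not overlap, which follows closely from their choice by p. All 24 kept their direction in every alternative in which they were tested. Their choice by p made this likely beforehand, since every alternative used these same libraries.

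Genes of allergic sensing did not separate the groups. Il33, the epithelial alarmin, was at 37.6, 13.6 and 18.9 CPM in sensitized and 13.96, 32.7 and 16.3 CPM in PBS libraries (0.16 ± 0.45), with 1 high library in each group. Its interval, −0.81 to 1.13, holds a rise of more than 2-fold but not a fall of 2-fold. The receptors of IL-4 and IL-13 and their signal carriers were bounded more tightly. Il4ra was at 85.1, 94.95 and 123 CPM in sensitized and 104, 116 and 94.3 CPM in PBS libraries (interval −0.42 to 0.32). Il13ra1 was at 70.4, 67.6 and 90.6 CPM against 66.1, 84.6 and 67.9 CPM (interval −0.26 to 0.39). Stat6, the transcription factor that both receptors activate, was at 144, 147 and 144 CPM against 127, 159 and 135 CPM (interval −0.17 to 0.27). The type 2 sensing list had 12 of 23 members tested, 5 higher and 7 lower, with a median of −0.08 and 0 without overlap.

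The cytokines of the type 2 response were at or near the floor. Il13, Il9, Ccl11, Ccl26 and Il13ra2 had 0 counts in all 6 libraries, which allows up to 3 counts, or 0.154 to 0.212 CPM, in a library. Tslp had 0 counts in sensitized libraries and 2, 0 and 1 in PBS libraries, and Il25 had 0, 1 and 0 against 0, 0 and 1. Retnlb, an antiparasitic goblet cell protein induced by IL-13, had 0 counts in sensitized libraries and 1 in a single PBS library. Il1rl1, the IL-33 receptor, had 1, 2 and 0 counts against 2, 1 and 3, and Ighe, the constant region of IgE, 1, 0 and 0 against 5, 0 and 0. These counts allow no comparison, and no difference in them was detectable at this depth.

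Mast cell proteases were present and differed more between mice than between groups. Mcpt1, a protease of mucosal mast cells, was at 1.90, 15.0 and 7.56 CPM in sensitized and 13.2, 3.63 and 10.1 CPM in PBS libraries (−0.14 ± 0.71), and Mcpt2, its close relative, at 0.97, 4.79 and 3.60 CPM against 5.38, 0.57 and 3.77 CPM. The pair moved together: sensitized library 1 and PBS library 2 were low in both genes. The high-affinity IgE receptor gene Fcer1a had 1 count in each sensitized library and 0, 0 and 1 in the PBS libraries, and Cpa3, Tpsb2 and Tpsab1, also of mast cells, were under 1 CPM in all 6 libraries. Of 14 mast cell genes 6 were tested, 1 higher and 5 lower, with a median of −0.11 (0.19 without PBS library 1 and −0.53 without PBS library 2). Of 9 genes in the eosinophil and basophil list 4 were tested, 2 higher and 2 lower, with a median of −0.01 (−0.72 without the mitochondria-rich pair). In it Siglecf was at 0.41, 0.43 and 0.14 CPM in sensitized and 0.71, 0.68 and 1.497 CPM in PBS libraries (−1.51 ± 0.72). Ear2, the most abundant member, was at 10.6, 14.8 and 12.8 CPM against 14.9, 10.8 and 11.1 CPM (0.05 ± 0.18). Epx, Prg3 and Mcpt8 had 0 or 1 count in a library.

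Tuft cell genes were low throughout and leaned lower after sensitization. Of 19 members 11 were tested, 10 lower and 1 higher, with a median of −0.46 (−0.79 without sensitized library 3). Of the 11, 3 were lower without overlap, beside 4.1% of all genes tested. The summed level was 17.5, 12.4 and 18.9 CPM in sensitized and 23.0, 23.4 and 31.3 CPM in PBS libraries. Ptgs2, the inducible cyclooxygenase, was at 1.85, 0.92 and 2.12 CPM against 4.56, 6.41 and 2.94 CPM (−1.51 ± 0.56), and Trpm5, the channel of tuft cell signalling, at 0.56, 0.70 and 0.57 CPM against 0.92, 0.85 and 4.39 CPM (−1.74 ± 0.65). PBS library 3 alone carried much of the Trpm5 level. The defining genes Dclk1, Pou2f3 and Il25 were too low to be tested: Dclk1 had 3, 0 and 0 counts in sensitized and 3, 0 and 26 counts in PBS libraries, and PBS library 3 was again the high one. Ptgs2, Alox5, Alox5ap, Plcb2 and Hpgds are also made by leukocytes, whose macrophage and dendritic cell markers summed to 53.4 to 78.6 CPM in sensitized and 76.8 to 109 CPM in PBS libraries; their part in the tuft cell result was not tested.

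**Figure D4:**
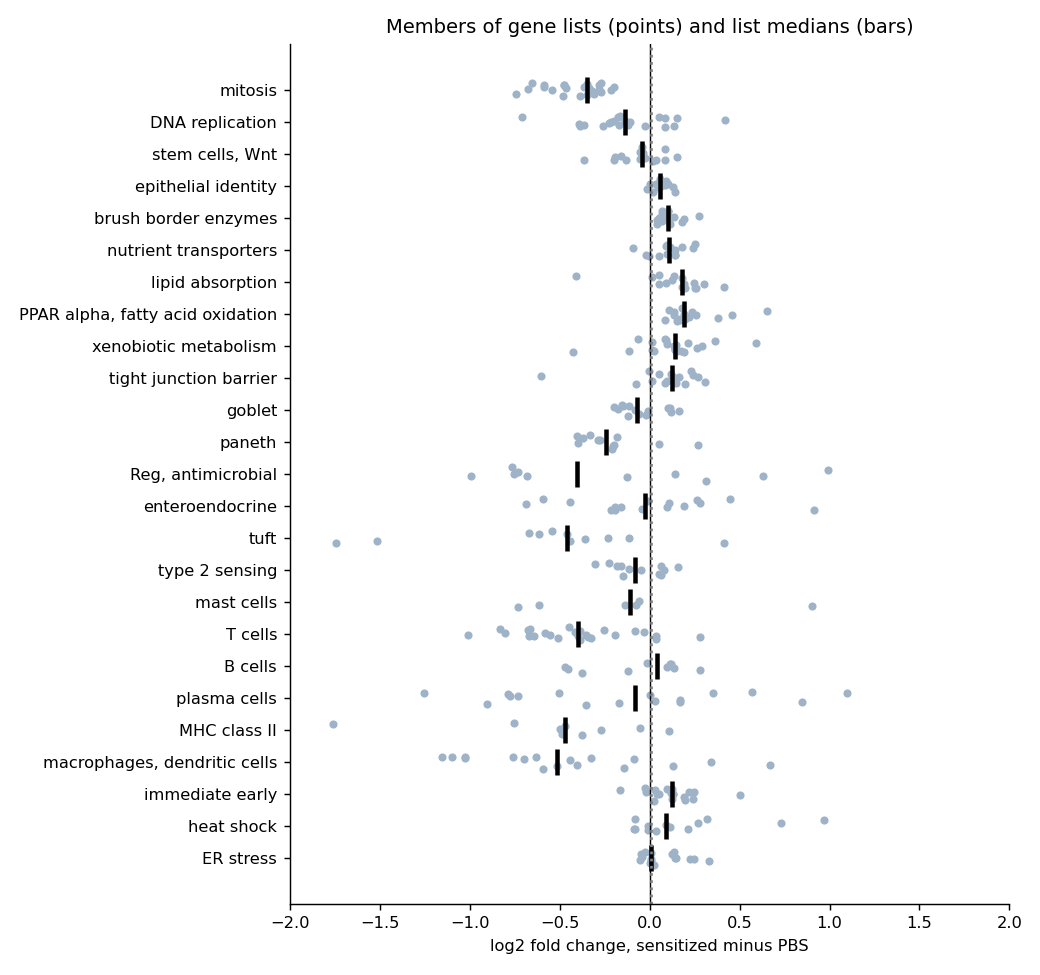
Log2 fold changes of sensitized minus PBS epithelium (x axis) for the tested members (points) and the median (bars) of 25 gene lists; the dotted line is the median of all genes tested, and 0 members passed. All 25 mitosis genes lie below 0 around a median of −0.35, and the leukocyte lists have wide scatter around medians as low as −0.52.

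Markers of leukocytes varied over a wide range between libraries of the same group. The T cell list was at a summed 98.0, 110 and 349 CPM in sensitized and 243, 268 and 220 CPM in PBS libraries, so that sensitized libraries 1 and 2 lay below all PBS libraries and sensitized library 3 above them. Of 25 members 22 were lower, with a median of −0.40, which was −1.04 without sensitized library 3 and −0.15 without sensitized library 2. Trac, the constant region of the T cell receptor alpha chain, was at 3.23, 2.85 and 6.57 CPM in sensitized and 6.36, 6.69 and 6.92 CPM in PBS libraries. The B cell list was at 9.99, 5.66 and 84.2 CPM against 50.5, 28.1 and 22.1 CPM, with a median of 0.04 that became −2.15 without sensitized library 3 and 0.53 without sensitized library 2. The MHC class II list, at 210, 114 and 886 CPM against 748, 815 and 263 CPM, had 8 of 9 members lower and a median of −0.47, with −1.96 without sensitized library 3 and −0.04 without sensitized library 2. In all 3 lists single libraries set both the size and, for B cells, the sign.

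The macrophage and dendritic cell list kept a median below 0 in every alternative run, as did the T cell and MHC class II lists. Of 17 members 14 were lower and 5 of those did not overlap, beside 4.1% of all genes tested. The other 3 were higher, and the median was −0.52 and ran from −0.78 to −0.28 over the alternatives. The summed level was 78.6, 53.4 and 70.4 CPM in sensitized and 109, 100 and 76.8 CPM in PBS libraries, which overlap by the nearest pair. C1qb, of the first complement component, was at 5.94, 3.07 and 2.61 CPM against 10.9, 7.43 and 5.52 CPM (−1.03 ± 0.43), and Itgam, an integrin chain of myeloid cells, at 8.87, 8.62 and 9.46 CPM against 15.0, 10.2 and 10.4 CPM (−0.40 ± 0.26). The 3 higher members, Zbtb46, Flt3 and Cd209a, are genes of dendritic cells, but not all dendritic cell genes of the list were higher. Zbtb46 was at 0.820, 0.754 and 0.777 CPM in sensitized and 0.706, 0.511 and 0.258 CPM in PBS libraries, without overlap (0.67 ± 0.61). Clec9a, also of dendritic cells, was lower without overlap, at 0.62, 0.38 and 0.35 CPM against 0.92, 1.13 and 0.98 CPM (−1.15 ± 0.80). Il1b, made by myeloid cells, was at 6.92, 2.15 and 4.24 CPM in sensitized and 13.5, 14.5 and 4.80 CPM in PBS libraries (−1.30 ± 0.55). The neutrophil genes S100a8, S100a9 and Elane had 0 counts in all 6 libraries. The NK and ILC list had 3 of 6 tested members higher and 3 lower; in it Klrb1b had 5, 5 and 14 counts in sensitized and 0, 0 and 1 in PBS libraries.

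Igha and Jchain split the libraries without following sensitization. Igha, the constant region of IgA, was at 680, 659 and 886 CPM in sensitized and 1667, 1627 and 516 CPM in PBS libraries (−0.78 ± 0.56), and Jchain, which joins IgA units, at 123, 115 and 162 CPM against 329, 337 and 83.7 CPM (−0.91 ± 0.50). In both genes PBS libraries 1 and 2 were high and PBS library 3 was below every sensitized library. Pigr, the epithelial receptor that carries IgA into the lumen, was at 2173, 2313 and 3094 CPM in sensitized and 3124, 2947 and 2468 CPM in PBS libraries. Of 152 antigen receptor segments tested, 72 had log2 fold changes past 1 and 18 an unadjusted p under 0.05, at a median standard error of 1.06. Over all genes tested these shares were 3.81% and 1.42%. The V segments past 1 at a mean of 10 CPM or more were all lower in sensitized libraries. The kappa V segment with the most counts was a different one in each of the 6 libraries, with 7.70%, 11.1% and 8.19% of kappa V counts in sensitized and 11.1%, 22.4% and 7.90% in PBS libraries. The plasma cell list had 8 of 16 tested members higher and 8 lower, with a median of −0.08 that was −1.05 without sensitized library 3.

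Genes of the absorptive epithelium did not separate the groups. The labelled cell type held: the 12 epithelial identity genes, such as Epcam, Cdh1 and the keratins, were at 102 to 4654 CPM in every library. Of these, 11 were higher and 1 lower, with a median of 0.06 that was 0 without scaling. Epcam was at 1385, 1377 and 1246 CPM in sensitized and 1234, 1211 and 1295 CPM in PBS libraries (interval −0.24 to 0.44). All 15 tested brush border enzymes were above 0 with a median of 0.10, none without overlap, and the median was −0.15 without PBS library 1 and 0.40 without PBS library 2. Sucrase-isomaltase (Sis), which splits sugars at the brush border, was at 5252, 4214 and 4475 CPM in sensitized and 3044, 5401 and 3775 CPM in PBS libraries, where PBS library 1 was the lowest and PBS library 2 the highest of the 6. Nutrient transporters had 11 of 14 members higher (median 0.11, or −0.10 without PBS library 1 and 0.32 without PBS library 2), lipid absorption 15 of 16 (0.18, or −0.04 without the mitochondria-rich pair and 0.32 without PBS library 2), and villus tip genes 7 of 11 (0.015).

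Of the metabolic lists, fatty acid oxidation, xenobiotic and bile acid genes were mostly above 0 and at their lowest level in PBS library 1. All 18 PPARα and fatty acid oxidation genes were above 0, with a median of 0.19 that was 0.05 without the mitochondria-rich pair and 0.32 without PBS library 3, and 0 members did not overlap. Pdk4, which spares glucose when fat is burned, was at 83.6, 192 and 134 CPM in sensitized and 61.1, 54.2 and 183 CPM in PBS libraries, with wide overlap. Of the xenobiotic list 18 of 21 members were higher (0.14, or −0.05 without PBS library 1 and 0.30 without PBS library 2). Of the 21, 2 were higher without overlap, beside 3.88% of all genes tested: the glutathione transferases Gsta4 and Gsta1. Gsta4 was at 36.9, 32.5 and 28.4 CPM in sensitized and 24.6, 25.1 and 26.2 CPM in PBS libraries (0.37 ± 0.17). Gsta1 was at 105, 80.8 and 74.4 CPM against 38.1, 69.3 and 65.2 CPM (0.59 ± 0.31). In both genes the nearest libraries of the groups were close. Bile acid genes had 8 of 8 higher (0.10, or −0.05 without sensitized library 1 and 0.23 without sensitized library 3), and cholesterol synthesis 7 of 20 (−0.06, or 0.07 without PBS library 2).

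Tight junction genes were bounded closely. Of 16 tested members 13 were higher, 2 without overlap, with a median of 0.13 that stayed between 0.06 and 0.17. The share of all genes tested that were higher without overlap was 3.88%. Marveld3, a membrane protein of tight junctions, was at 50.8, 47.5 and 45.8 CPM in sensitized and 39.5, 40.2 and 42.1 CPM in PBS libraries (0.24 ± 0.10, interval 0.03 to 0.46). Marveld2, or tricellulin, at 67.6, 66.3 and 68.0 CPM against 47.9, 53.0 and 62.1 CPM, lay on the same side. Ocln (interval −0.17 to 0.49) and Tjp1 (interval −0.20 to 0.49), of the junction core, overlapped between the groups. Differences of 1.5-fold in Ocln or Tjp1 thus lie outside the intervals.

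Goblet, Paneth and antimicrobial lists overlapped between the groups. Of 14 tested goblet genes 4 were higher and 10 lower, with a median of −0.07 that was 0.33 without PBS library 1 and −0.22 without PBS library 2, and Clca1 was at 901, 1740 and 1610 CPM in sensitized and 1717, 895 and 1185 CPM in PBS libraries. Paneth cell genes had 10 of 12 lower, at a median of −0.24 (−0.05 without PBS library 1 and −0.40 without PBS library 2). Defa30, an α-defensin, was at 1655, 1282 and 1734 CPM against 2554, 1597 and 1719 CPM; near-identical α-defensin copies share reads, so the level of a single one is uncertain. The Reg and antimicrobial list had 6 of 10 lower (−0.40, or −0.01 without PBS library 1 and −0.71 with the 6 libraries fitted alone). Its lectin Reg3g, which kills Gram-positive bacteria, was at 358, 466 and 822 CPM in sensitized and 1735, 596 and 464 CPM in PBS libraries, and 1 PBS library made the difference. Duox2, an epithelial oxidase, was at 37.3, 55.4 and 68.4 CPM against 92.0, 99.8 and 66.0 CPM.

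**Figure D5:**
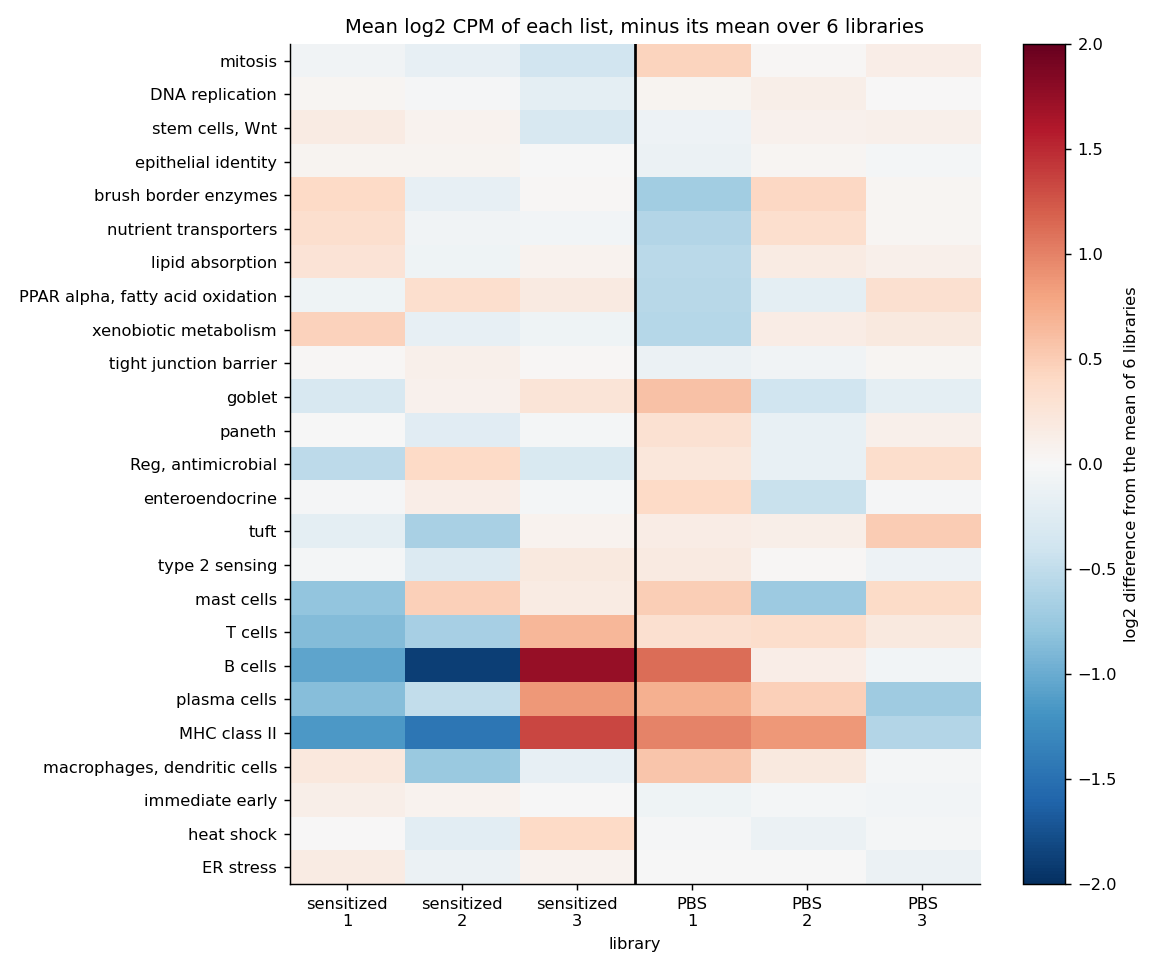
Mean log2 CPM of 25 gene lists in each library, minus the mean over the 6 libraries (colour), with the 3 sensitized libraries left of the line and the 3 PBS libraries right of it. The mitosis, tuft and immediate early rows separate the groups. The B cell, T cell and MHC class II rows are highest in sensitized library 3 and lowest in sensitized libraries 1 and 2.

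Stress and signal genes showed small differences. The immediate early list, genes switched on quickly by stimulation and by tissue handling, had a mean log2 CPM of 8.23 to 8.36 in sensitized and 8.14 to 8.19 in PBS libraries, with no overlap on this scale. Its summed CPM, 12000 to 13290 in sensitized and 10900 to 12550 in PBS libraries, overlapped. Of 19 members 16 were higher, 6 without overlap, with a median of 0.13 (0.06 without scaling). Among all genes tested 51.5% were higher, and 3.88% were higher without overlap. Btg2 was at 763, 807 and 740 CPM in sensitized and 609, 654 and 689 CPM in PBS libraries (0.24 ± 0.16), but the best known members did not separate: Fos was at 1638, 1402 and 1349 CPM against 1404, 1565 and 1349 CPM (interval −0.33 to 0.38) and Egr1 at 1398, 1367 and 1302 CPM against 1168, 1512 and 1306 CPM (interval −0.35 to 0.41). Heat shock genes had 8 of 13 higher (median 0.09, or −0.003 without sensitized library 3), with Hspa1b, an inducible chaperone, at 99.9, 88.3 and 399.9 CPM in sensitized and 125, 83.8 and 146 CPM in PBS libraries, where sensitized library 3 was the high one. The ER stress (0.01, or −0.05 without scaling), NF-κB (−0.05), interferon (−0.006), NRF2 (−0.004) and nuclear respiratory chain (0.04, or −0.02 without scaling) lists lay near the median of all genes, and each of these medians switched sign under at least 1 alternative. The circadian list had 15 of 17 members higher (0.15, or 0.01 without sensitized library 1 and 0.57 without PBS library 2). The glucocorticoid list had 9 of 12 higher (0.16, or 0.07 without sensitized library 1 and 0.32 without PBS library 2), and all 13 mitochondrially encoded genes were above 0 (0.15, or −0.19 without sensitized library 3 and 0.43 without PBS library 1).

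Of 8 tested genes of antigen uptake and M cells, 4 were higher and 4 lower. Genes of other tissues were low. Of 16 stromal and endothelial genes 11 were under 1 CPM in all 6 libraries, as were 8 of 10 enteric nerve genes and 10 of 11 pancreatic genes. Red cell genes were present at a summed 125 to 179 CPM in sensitized and 74.3 to 169 CPM in PBS libraries. Over all 652 genes of the 44 lists, 561 were tested, with 303 higher and 258 lower; 23 and 34 of these did not overlap in the 2 directions, and 17 had an unadjusted p under 0.05. In all genes tested 1194 (7.98%) did not overlap, 581 (3.88%) of them higher and 613 (4.1%) lower. An unadjusted p under 0.05 was reached by 212 of all genes tested (1.42%).

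Some large apparent differences were in genes with 0 counts in a whole group. DESeq2 called 6 genes at an adjusted p under 0.05 where edgeR and limma-voom called 0, and each of these had 0 counts in all libraries of 1 group. The gene model Gm45837 (chr7:101410886-101512819) had 132, 396 and 365 counts in sensitized and 0 in PBS libraries; it overlaps on the same strand with Pde2a (chr7:101421691-101512827), a phosphodiesterase of cyclic nucleotides that was among the 24 genes of smallest p. Pde2a alone was at 22.9, 23.5 and 31.1 CPM in sensitized and 59.3, 29.9 and 38.4 CPM in PBS libraries (−0.72, or −0.41 without PBS library 1), and the sum of both gene IDs at 29.6, 44.8 and 56.9 CPM against 59.3, 29.9 and 38.4 CPM. The sums overlap fully between the groups. A second gene ID of Nnt, a mitochondrial transhydrogenase, had 359 counts in sensitized library 2 alone, in which the first ID was at its lowest, 21.5 CPM against 32.9 to 44.6 CPM in the other 5, and the sums of both were 44.6, 40.8 and 32.9 CPM in sensitized and 35.6, 39.5 and 37.4 CPM in PBS libraries. Of the other 4, Gm10240 and Gm10163 are processed pseudogenes counted in 2 and 1 sensitized libraries, Defa2 had 53 counts in PBS library 1 only, and Rps12-ps3 had 8, 5 and 9 counts in PBS and 0 in sensitized libraries.

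Such switching also occurred within groups. Among tested genes, 24 were at 0 in 1 of the 6 libraries and at 10 CPM or more in another, and in 20 of them this happened within a group. Pseudogenes made up 33.3% of these 24 and 2.71% of all genes tested. All 6 genes with the widest intervals at 5 CPM or more were among them, such as Gm29216, a pseudogene with 0, 0 and 16282 counts in sensitized and 32900, 0 and 0 counts in PBS libraries.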

How the data were processed

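Polyadenylated RNA of 15 libraries was sequenced as pairs of 151 bp reads. The submitters' processing notes name cutadapt 1.18, Salmon 1.2.1 and the build mm10, and no annotation release. The authors deposited, per the file headers, an estimated count and a TPM for each of 139058 transcripts in a library. Estimated counts were summed to 52844 genes with GENCODE M21 (137943 transcripts matched) and rounded; TPM served only to weight effective lengths in 1 alternative. Reads that near-identical genes share are split by estimation, which makes their levels uncertain.

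In R 4.3.3, edgeR 4.0.16 (filterByExpr, TMM, robust estimateDisp and glmQLFit, glmQLFTest) fitted the 5 groups of 3 with 10 residual degrees of freedom; the contrast was sensitized minus PBS, with Benjamini-Hochberg adjustment over 14968 genes and a threshold of 0.05. Errors are standard errors of the quasi-likelihood fit, and 95% intervals use its moderated degrees of freedom. The 3 counts taken as the floor cover counting error only. Library measures used exact permutation tests, two-sided except for the distance between groups. List levels are mean log2 CPM with a prior count of 2. The edgeR step was tested on simulated data. Alternatives were limma 3.58.1, DESeq2 1.42.0, other scalings and filters, and libraries left out.

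Named genes are the 24 of smallest p without gene models and antigen receptor segments, any gene past the threshold in another tool, up to 4 genes of each of 44 lists, a fixed set of allergy genes, and the most and least precisely measured genes. Genes past 1 on the log2 scale at 10 CPM, and the list members named beyond that rule, were chosen after their values were seen. The comparison, lists and rules were chosen with earlier results of these data known. Labels name 15 mice; replicate numbers only name libraries. Gene sums used Python 3.11.15 with pandas 2.3.3 and numpy 2.4.6; figures used matplotlib 3.10.9.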

Additional observations from a re-analysis of the deposited data

How the results depend on the processing

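No gene passed the threshold in 17 of 18 alternatives, run with edgeR or limma-voom; the exception, DESeq2, called 6. The number with an unadjusted p under 0.05 was 212 in the reported fit, 346 with the 6 unchallenged libraries fitted alone, 479 with no filter on low counts and 333 with effective length offsets. Leaving out each library in turn gave 189 to 365, the highest without PBS replicate 3, with 0 calls each time. The causes were not tested. Leaving out the mitochondria-rich pair and using the mitochondrial share as a covariate, both chosen after seeing the data, gave 171 and 291. Of 789 list medians under the alternatives, 22 moved by more than the spread between replicates and 767 did not. The 24 genes of smallest p kept their direction, which their choice from these same libraries made likely beforehand. No paired analysis was possible because the titles give every mouse a number of its own and the groups share none. Genes under 1 CPM needed a median of 3.25-fold to reach an unadjusted p of 0.05. Each standard error is that of 3 against 3 mice, with the spread between mice estimated from all 15 in 1 fit. Neither age, sex nor the time of day is given for the groups.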
